A study of Mus musculus with 8 samples.

Results

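The nuclear genes of the mitochondrial respiratory chain were taken by symbol from the genes of the array: Ndufa, Ndufb, Ndufc, Ndufs and Ndufv (complex I), the 4 Sdh genes (complex II), Uqcr and Cyc1 (complex III), Cox4 to Cox8 (complex IV) and Atp5 (ATP synthase, complex V). This gave 92 genes of 24357, read by 152 probes, and for the 40 genes with more than 1 probe the probe with the brightest mean over the 8 arrays was used. Of the 92, 73 encode subunits of the complexes in most tissues (35 of complex I, 4 of II, 9 of III, 10 of IV and 15 of V), 8 are tissue isoforms or paralogs of complex IV subunits, 7 are complex I assembly factors (Ndufaf1 to Ndufaf7) and 4 are other symbols that the pattern takes in, among them a pseudogene. Ndufa4 was counted with complex IV, and none of 26 symbols searched for mitochondrially encoded chain genes was found on the array. The cells were Epcam+ lung epithelium carrying a tdTomato label, with Tom-high cells taken as alveolar type 2 cells (AT2s) and Tom-low cells as injury activated alveolar progenitors (IAAPs). Control mice (C-) carried Sftpc CreERT2/+ and Tomato flox/flox with wild-type Fgfr2b, experimental mice (E-) carried Fgfr2b flox/flox in addition, and both genotypes drank water with tamoxifen (1 mg/ml). The Cre is driven by Sftpc, so that recombination depends on cells that use this gene, some E-IAAPs are described as having escaped the deletion, and the mice were 9 to 12 weeks old and of both sexes. There was 1 array each of C-AT2s and C-IAAPs, both of day 7, and 1 array each of E-AT2s and E-IAAPs on days 4, 7 and 14. How many animals went into an array is not given in the sources used here.

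Complexes I to IV pass electrons from NADH and succinate to oxygen and, with the exception of complex II, pump protons across the inner mitochondrial membrane. ATP synthase lets the protons back through its rotor and makes ATP. Most subunits are encoded in the nucleus and imported, and the rest by the mitochondrial DNA, so that complexes I, III, IV and V form only when both sets are made. AT2 cells, which make and secrete surfactant, are rich in mitochondria.

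All values are log2 array signals after quantile normalization, so a level is relative to the other spots of its array. Between genes, levels served to pick and group genes by brightness and to set a background level, and no abundance is read from them. In such bulk samples fewer cells of a type and less RNA per cell cannot be told apart. The C-IAAP array stood apart. Its correlation with the other 7 arrays across genes, which are not independent replicates, was 0.845 to 0.876, against 0.915 to 0.971 among those 7. The background level, the 95 percentile of 1394 odorant, taste and vomeronasal receptor genes, was 8.67 there, where the other 7 had 6.45 to 7.28, and 26.6% of all genes lay above this level there against 40.7% to 46.5%. Epcam, an epithelial surface protein used in the sort, read 8.72 there and 10.88 to 11.38 on the other 7 arrays, while all 10 AT2 markers lay above background on every array. Leukocyte markers moved with the population: the summed log2 signal of 10 such genes was 111.7 to 113.5 in E-IAAPs, 111.9 in C-IAAPs, 72.5 to 76.8 in E-AT2s and 77.3 in C-AT2s. The part that these differences have in the results below was not tested. Fgfr2, the targeted gene, read 12.45 in C-AT2s, 11.68 to 12.10 in E-AT2s, 11.72 in C-IAAPs and 10.87 to 11.83 in E-IAAPs, and whether its probe lies in the deleted stretch was not settled, so these signals check no label.

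Respiratory chain transcripts read lowest on the C-IAAP array. It held the lowest of the 8 signals for 65 of the 92 genes (70.7%), where each other array held between 1 and 7. It held the lowest for 25.9% of all genes and, since most of the 92 are bright, for 35.1% of the 3637 genes with a mean level of at least 10. It held the highest signal for 7 of the 92, against 30.7% of all genes and 30.2% of the bright ones. The gap below the next array was wider than the whole range of the other 7 for 37 of the 92 genes (40.2%), against 9.22% of all genes and 15% of the bright ones, and the gap above was so for 2, against 7.6% of all genes. Cytosolic ribosomal protein genes read lowest there for 53 of 83 (63.9%) and mitochondrial ones for 44 of 77 (57.1%), with 14 and 12 highest. Their gap below was as wide for 36.1% and 36.4%, so the pattern was not particular to the respiratory chain. Of 23 housekeeping genes 7 read lowest and 8 highest on the C-IAAP array. The median signal of the 92 was 9.84 there, where the other 7 arrays had 10.76 to 11.03. Of the 92 genes 68 lay above background there and 83 to 85 elsewhere. Because the background level of that array was high, the 68 genes above background on every array were also counted alone: 48 of them read lowest in C-IAAPs and 6 highest, which has no matching share over all genes here. Over the other 7 arrays the median range of the 92 genes was 0.66, near the 0.75 of genes with a mean level of at least 10 and below the 1.43 of all genes.

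**Figure D1:**
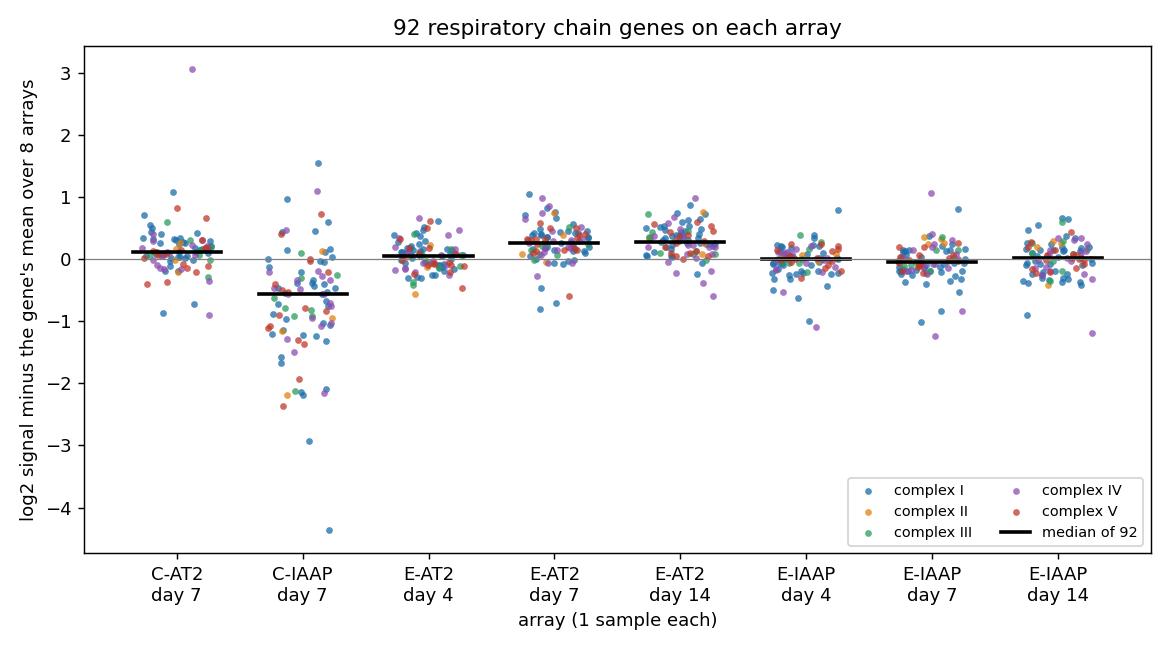
Log2 signal of each of the 92 genes minus that gene's mean over the 8 arrays (vertical axis) on each array (horizontal axis), with 1 point per gene coloured by complex and a bar at the median. The C-IAAP array holds the lowest of 8 signals for 65 of the 92 genes, and no other array does so for more than 7.

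Genes called lower were found in each complex, though in complex III this was 1 of 9, near the share of all genes. Against the mean of the other 3 groups (C-AT2s, E-AT2s and E-IAAPs), C-IAAPs were called lower for 27 of the 92 genes and higher for 2 at an adjusted p under 0.05 in limma, where 11.3% of all genes were called lower and 11.1% higher. Of the 12178 genes with the higher mean levels 18.5% were called lower. The fitted difference was negative for 77 of the 92, with a median of -0.73 against 0.08 over all genes, -0.09 over those 12178 and -0.05 over the 3637 genes with a mean level of at least 10. Among the subunits the counts called lower were 12 of 35 for complex I, 3 of 4 for complex II, 1 of 9 for complex III, 3 of 10 for complex IV and 5 of 15 for complex V, and no subunit was called higher. The median differences were -0.67, -1.22, -0.91, -0.74 and -0.85 in the same order. Each control group is 1 array, and the spread in this fit comes from the experimental arrays of 3 days, so that the control arrays are assumed to vary as those do. After centring each array on housekeeping genes 16 of the 92 were called lower, beside 9.69% of all genes, and without 1 of the experimental days 13 or 14 were, beside 7.33% to 8.61% of all genes. No share for the genes with the higher mean levels is given in these settings, so these counts are not compared with genes of like brightness.

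**Figure D2:**
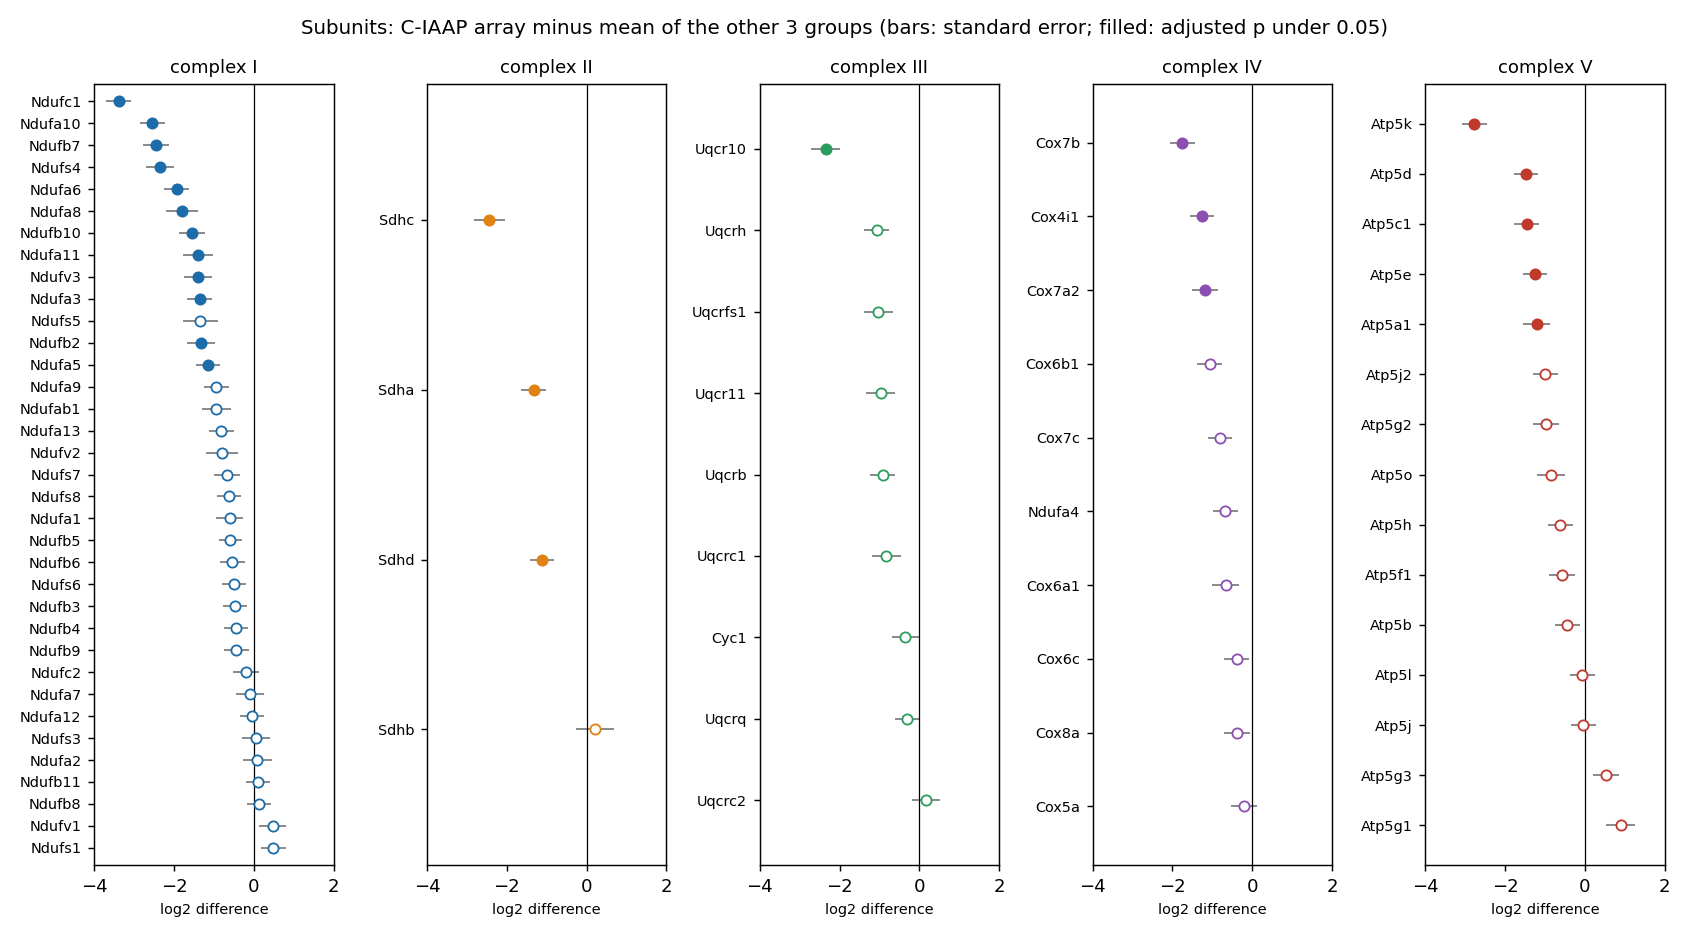
Log2 difference of the C-IAAP array from the mean of the other 3 groups (horizontal axis) for the 73 subunits by complex, with the standard error of the limma fit as bars and filled points where the adjusted p was under 0.05. The 24 filled points all lie below 0, from Ndufc1 at -3.38 to Sdhd at -1.12.

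Start-site sequences are shown so that what lies before these genes can be set side by side. They are given for the 5 genes whose population difference also depended on the genotype (given further on), and for Ndufaf7 and Atp5g1. Ndufaf7 was called higher in C-IAAPs, while Atp5g1 read highest there by its brightest probe alone and was not called. The stretches are the 130 bases before the RefSeq start in GRCm38.p6, read on the gene's strand, with capitals where 1 of 6 motifs was found: GCGCA, any base and GCGC (bound by NRF1), CCGGAAG (ETS factors), AAGATGG (YY1), AAGGTCA (ERR receptors), GGGCGG (Sp1) and CCAAT, each searched on both strands.
Ndufaf2, chr13:108158626-108158755, minus strand: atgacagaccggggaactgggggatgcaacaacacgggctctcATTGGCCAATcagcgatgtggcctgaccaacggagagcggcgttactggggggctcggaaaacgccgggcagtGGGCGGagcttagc
Ndufc1, chr3:51408956-51409085, minus strand: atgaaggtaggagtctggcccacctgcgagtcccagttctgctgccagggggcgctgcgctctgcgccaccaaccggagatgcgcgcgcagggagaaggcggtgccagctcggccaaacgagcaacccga
Ndufa10, chr1:92473759-92473888, minus strand: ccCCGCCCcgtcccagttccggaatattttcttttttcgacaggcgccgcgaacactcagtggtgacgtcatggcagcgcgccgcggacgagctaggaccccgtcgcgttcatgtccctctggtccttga
Ndufb7, chr8:83566628-83566757, plus strand: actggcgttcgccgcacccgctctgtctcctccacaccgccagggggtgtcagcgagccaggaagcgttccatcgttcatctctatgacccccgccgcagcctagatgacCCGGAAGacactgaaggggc
Atp5k, chr5:108434400-108434529, minus strand: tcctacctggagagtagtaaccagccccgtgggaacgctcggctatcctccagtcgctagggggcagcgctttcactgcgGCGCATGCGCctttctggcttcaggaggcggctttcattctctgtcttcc
Ndufaf7, chr17:78937005-78937134, plus strand: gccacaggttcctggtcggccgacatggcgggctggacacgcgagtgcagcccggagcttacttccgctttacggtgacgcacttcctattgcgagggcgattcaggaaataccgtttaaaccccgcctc
Atp5g1, chr11:96075632-96075761, minus strand: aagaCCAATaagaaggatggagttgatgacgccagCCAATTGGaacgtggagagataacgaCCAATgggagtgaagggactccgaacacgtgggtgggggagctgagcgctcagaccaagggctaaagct
None of the 6 motifs was found in all 5 of the genes lower in C-IAAPs: Ndufaf2 holds GGGCGG and CCAAT on both strands, Ndufa10 holds GGGCGG, Ndufb7 holds CCGGAAG, Atp5k holds the NRF1 motif and Ndufc1 none. Windows of 300 bases, from 250 before to 50 after the start, were at hand for 75 of the 92 genes. The NRF1 motif lay in 18 of them (24.0%) against 4.78% of the windows of all genes in the table, the ETS motif in 21.3% against 9.12%, AAGATGG in 14.7% against 6.48%, AAGGTCA in 10.7% against 4.66%, GGGCGG in 45.3% against 35.9% and CCAAT in 45.3% against 37.9%. The NRF1 motif was found in 7 of the 24 windows of genes called lower in C-IAAPs and in 11 of the 50 of genes not called. A match is a description of letters and not evidence of binding.

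In complex I, the NADH dehydrogenase, all 12 subunits called lower were among the 29 accessory ones, which surround the catalytic core. None of the 6 core subunits on the array passed, and 3 of these lay above 0. Whether core and accessory subunits differ was not tested. Ndufc1 read 10.70 in C-AT2s but 7.21 in C-IAAPs, with 10.61, 10.97 and 10.78 in E-AT2s on days 4, 7 and 14, and 10.33, 10.28 and 10.27 in E-IAAPs. Only the C-IAAP signal lay below background, so C-AT2s were at least 4.07-fold and E-IAAPs at least 3.08-fold above it (fitted difference -3.38, standard error 0.31, adjusted p = 0.0016 in limma). Ndufa10 read 10.84 in C-AT2s, 8.14 in C-IAAPs, 10.70 to 10.77 in E-AT2s and 10.36 to 10.70 in E-IAAPs, at least 3.51-fold lower in C-IAAPs than in E-IAAPs (adjusted p = 0.0034). Its further probes gave smaller differences of -0.98 and -1.79. Ndufb7 stayed above background throughout, with 12.87 in C-AT2s, 10.40 in C-IAAPs, 12.59 to 13.01 in E-AT2s and 12.77 to 13.02 in E-IAAPs (difference -2.45, standard error 0.33, adjusted p = 0.0043). Its 7 other signals spanned less than 0.5 and did not overlap with the C-IAAP signal. Ndufs4, an accessory subunit whose loss in mice causes a fatal brain disease of the Leigh type, read 7.61 in C-IAAPs, below background, and 9.69 to 10.36 on the other arrays (adjusted p = 0.0060). Ndufa13, an accessory subunit also known as GRIM-19, read 12.06 in C-IAAPs and 12.76 to 13.17 elsewhere but did not pass (difference -0.81, adjusted p = 0.10). Among the core subunits Ndufs1, which carries electrons over its iron-sulfur clusters, read 10.64 in C-IAAPs and 9.95 to 10.29 elsewhere (difference 0.49, adjusted p = 0.30), and Ndufv1, which binds NADH, 9.67 against 8.61 to 9.59 (difference 0.47, adjusted p = 0.35). The second probe of Ndufv1 went the other way (-0.55), and that of Ndufs1 lay below background on all arrays.

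Complex II, succinate dehydrogenase, is encoded by the nucleus alone and also serves the tricarboxylic acid cycle. Sdhc, a membrane anchor, read 11.74 in C-AT2s but 9.55 in C-IAAPs, with 11.77, 12.48 and 12.50 in E-AT2s, and 11.79, 12.10 and 12.00 in E-IAAPs (difference -2.44, standard error 0.39, adjusted p = 0.0076). Sdhd, the other anchor, was 10.59 in C-IAAPs and 11.42 to 11.84 elsewhere (adjusted p = 0.042), and Sdha, the flavoprotein, 9.07 against 10.18 to 10.50 (adjusted p = 0.026). The C-IAAP signals of these 3 genes lay above background and below all other arrays. Sdhb, the iron-sulfur subunit, went the other way by value, at 9.70 in C-IAAPs within the 8.99 to 9.95 of the other 7 arrays (difference 0.20, adjusted p = 0.80).

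In complex III, ubiquinol-cytochrome c reductase, Uqcr10 was called lower. It read 11.26 in C-AT2s, 9.15 in C-IAAPs, 11.67 to 12.00 in E-AT2s and 11.05 to 11.66 in E-IAAPs (difference -2.35, standard error 0.36, adjusted p = 0.0065). A further probe of this gene gave -1.03. Uqcrh and Uqcrb, the brightest probes of the complex, read 12.35 and 12.43 in C-IAAPs against 13.18 to 13.64 and 13.19 to 13.51 on the other arrays, without passing (adjusted p = 0.052 and 0.078). Cyc1, cytochrome c1, was at 9.72 in C-IAAPs, inside the 9.68 to 10.49 of the other arrays. Uqcrc2, core protein 2, was the subunit of the complex with a positive difference (0.18, adjusted p = 0.76).

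Cytochrome c oxidase, complex IV, hands the electrons to oxygen. All 10 of its subunits had negative differences, and Cox7b (9.67 in C-IAAPs against 11.22 to 11.58), Cox4i1 (12.19 against 13.28 to 13.64) and Cox7a2 (10.90 against 11.61 to 12.39) passed with adjusted p of 0.011, 0.029 and 0.042. Cox6a1, the brightest probe of the group, read 12.84 in C-IAAPs and 13.22 to 13.90 elsewhere (adjusted p = 0.20), and Cox5a had the smallest difference (-0.20, adjusted p = 0.69). The isoforms split. Cox4i2, the isoform of subunit 4 found in lung, was 1 of the 2 genes called higher: it read 12.15 in C-IAAPs and 10.78 to 11.13 on the other 7 arrays (difference 1.23, standard error 0.31, adjusted p = 0.032). This call was lost under both centrings of the arrays (differences 1.25 and 1.09) and without any 1 of the experimental days. Cox4i1, which takes the same place in the enzyme, fell on the same array. Cox6b2, known as the testis isoform of subunit 6b, read 8.55 in C-IAAPs, just below background, and 10.56 to 11.47 elsewhere, at least 5.04-fold higher in E-IAAPs (adjusted p = 0.0063). Cox6a2, the isoform of heart and muscle, was low on 2 arrays, at 10.60 in C-IAAPs and 10.69 in E-IAAPs of day 14, against 11.82 to 12.57 on the other 6, and did not pass (adjusted p = 0.087). That day 14 array also had the highest ciliated cell markers, with a median of 12.15 over 6 genes against 3.31 to 8.11 elsewhere, and their part was not tested. Cox7a1 lay above background on the 7 arrays besides C-IAAPs, while Cox7b2, Cox8b, Cox8c and Ndufa4l2 lay below it on all 8 arrays.

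In ATP synthase, Atp5k, the membrane subunit e at the contact of 2 enzymes, had the most negative fitted difference, a rank that rests on a signal below background. It read 10.17 in C-AT2s but 7.13 in C-IAAPs, with 10.12, 9.84 and 10.04 in E-AT2s, and 9.50, 9.69 and 9.50 in E-IAAPs (difference -2.77, standard error 0.31, adjusted p = 0.0026), and its C-IAAP signal lay below background, so that C-AT2s were at least 2.82-fold higher. A second probe gave -2.37. The catalytic head was low in parts: Atp5a1 (13.41 in C-IAAPs, 14.42 to 14.94 elsewhere), Atp5c1 (8.75 against 9.90 to 10.55), Atp5d (9.85 against 10.95 to 11.73) and Atp5e (12.84 against 13.92 to 14.31) passed with adjusted p of 0.045, 0.017, 0.018 and 0.027. Atp5b, the catalytic beta subunit, did not (12.03 against 12.33 to 12.67, adjusted p = 0.34). Its further probes gave larger differences of -1.14 and -1.18, while that of Atp5a1 gave a smaller one of -0.46. The probes therefore do not set these 2 subunits apart. The 3 genes of the rotor ring, which encode the same mature protein, had signals as follows: Atp5g2 read 10.54 in C-IAAPs against 11.28 to 11.95 (difference -0.98, adjusted p = 0.074), Atp5g1 12.76 against 11.43 to 12.27 (0.90, adjusted p = 0.12) and Atp5g3 10.92 against 10.15 to 10.67 (0.53, adjusted p = 0.27). None of the 3 passed, and 2 further probes of Atp5g1 gave -0.10 and -0.39, against the direction of its brightest probe, as did a further probe of Atp5g3 (-1.60), so that no direction is given for these 2 genes. The 9 further probes of Atp5g2 were all lower in C-IAAPs, by 0.64 to 0.97.

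The assembly factors held both ends of the distribution. Ndufaf2, which acts late in the assembly of complex I, read 11.59 in C-AT2s but 6.14 in C-IAAPs, with 11.03, 11.28 and 11.05 in E-AT2s and 10.50, 11.32 and 11.16 in E-IAAPs (difference -5.09, standard error 0.40, adjusted p = 0.0012). The C-IAAP signal lay below background, which makes C-AT2s at least 7.55-fold and E-IAAPs at least 5.003-fold higher. Ndufaf7, a methyltransferase of complex I assembly, read 9.81 in C-AT2s but 12.08 in C-IAAPs, with 10.28, 10.58 and 10.58 in E-AT2s and 10.11, 10.16 and 10.64 in E-IAAPs (difference 1.89, standard error 0.35, adjusted p = 0.012). Its second probe gave 0.56, and with the mean of both probes it no longer passed (difference 1.22). Ndufaf5 was level (9.93 in C-IAAPs, 9.70 to 10.10 elsewhere), Ndufaf1 and Ndufaf4 lay below background on all arrays, and Ndufaf3 and Ndufaf6 lay above it on 3 and 4 of the 8. Among the other symbols Cox7a2l, which helps join complexes into supercomplexes, read 13.46 in C-IAAPs against 13.79 to 14.10 (adjusted p = 0.24). Atp5s was called lower (adjusted p = 0.012), but it lay below background on all 8 arrays and no fold is given.

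**Figure D3:**
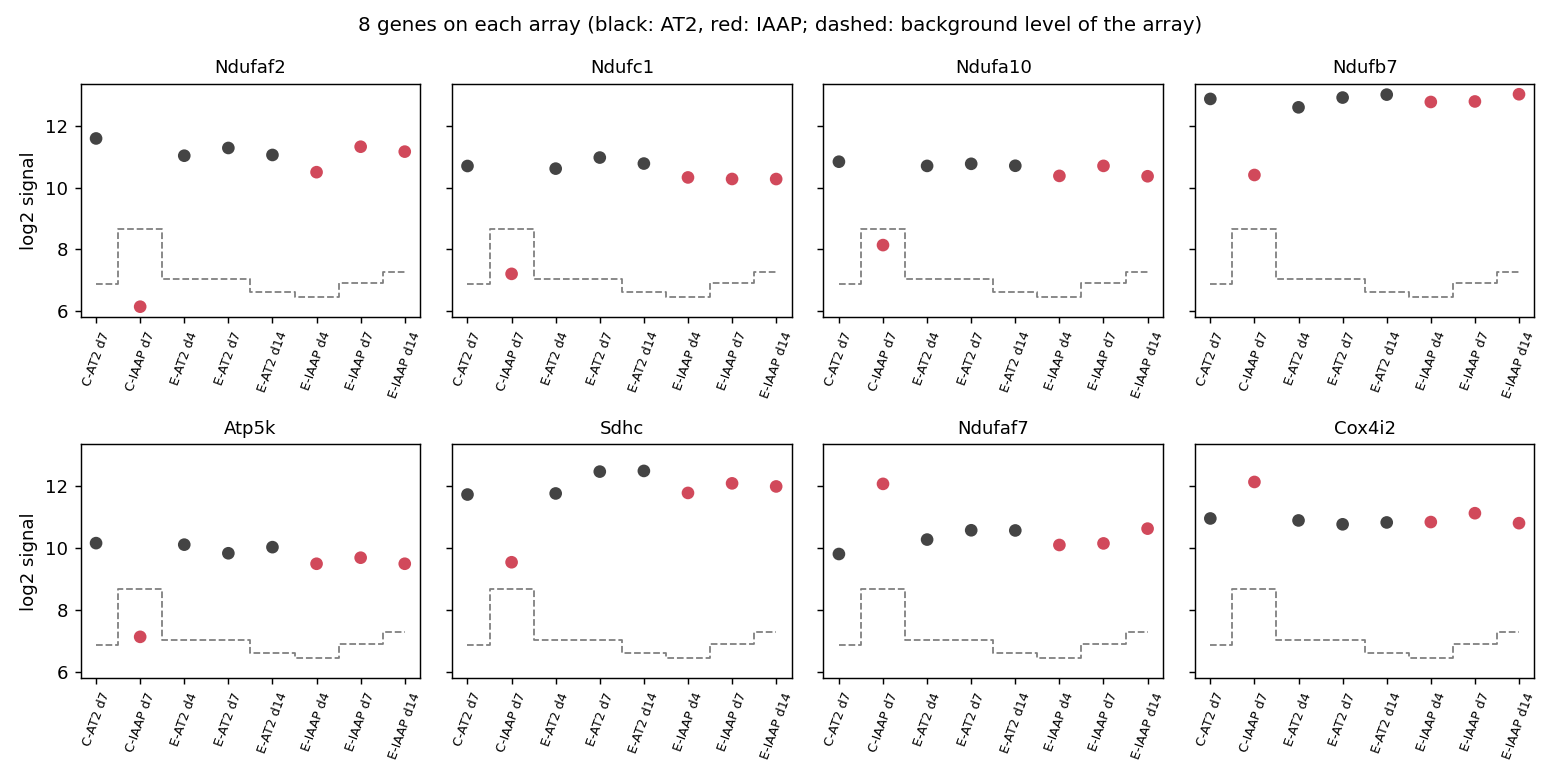
Log2 signal (vertical axis) of 8 genes on each of the 8 arrays (horizontal axis; black AT2s, red IAAPs), with the background level of each array as a dashed line. Ndufaf2, Ndufc1, Ndufa10 and Atp5k fall below the line on the C-IAAP array, Ndufb7 and Sdhc are low but above it, and Ndufaf7 and Cox4i2 are high.

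Where a gene had further probes, these mostly moved the same way. Of 60 further probes of these genes 44 had the sign of the probe used, and of the 37 that lay above background on the 7 arrays besides C-IAAPs 29 did. Of 9 such probes of genes called lower, 8 were also lower. That filter sets no bound on the C-IAAP signal and so favours probes that are low there. The filtered counts therefore lend no support to the lower C-IAAP signals. Of the 27 genes called lower, 17 had a C-IAAP signal above background and 10 below it.

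The same C-IAAP array enters the comparisons by population and by genotype, which are therefore not independent of the one above. Against C-AT2s, C-IAAPs were called lower for 14 of the 92 genes and higher for 1, where 7.74% and 6.09% of all genes were. The 14 are 15.2% of the 92, and the share called lower was 12.3% among the genes with the higher mean levels. The median difference was -0.74 against 0.09 over all genes. At day 7, 36 of the 92 were at least 2-fold lower in C-IAAPs than in C-AT2s, against 22.8% of all genes. E-IAAPs were called higher than C-IAAPs for 18 of the 92 and lower for 2, where 9.34% and 7.74% of all genes were, with a median difference of 0.57 against -0.10 over all genes. Of the genes with the higher mean levels 15.2% were called higher. In the same comparison 7 of 14 alveolar macrophage markers were called higher in E-IAAPs (summed signal 159 to 164 against 130 in C-IAAPs, with 13 to 14 and 8 above background) and 2 of 8 AT1 markers lower, and their part was not tested. Leaving out 1 of the experimental days gave 4 to 6 genes lower than in C-AT2s and 7 to 9 genes higher in E-IAAPs, where the shares of all genes fell too, to 2.83% to 4.31% and to 3.67% to 5.68%. A trended, robust prior in limma gave 30 and 35, beside 10.3% and 11.9% of all genes.

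The population difference depended on the genotype for 5 of the 92 genes in limma's interaction term, all with IAAPs relatively higher in experimental mice, where 2.82% of all genes passed in this direction and 1.54% in the other. The 5 are 5.43% of the 92, near the 4.68% of the genes with the higher mean levels. They were Ndufaf2 (5.31, standard error 0.59, adjusted p = 0.015), Ndufc1 (2.996, 0.46, adjusted p = 0.026), Atp5k (2.60, 0.46, adjusted p = 0.035), Ndufa10 (2.45, 0.47, adjusted p = 0.041) and Ndufb7 (2.48, 0.49, adjusted p = 0.043). Each of the 5 control differences rests on the C-IAAP array, on which Ndufaf2, Ndufc1, Atp5k and Ndufa10 lay below background, so that the sizes of these 4 are not measured in full. Without any 1 of the experimental days 0 of the 92, and 0 of all genes, passed in fits with 2 fewer arrays. The median interaction over the 92 was 0.55, against -0.10 over all genes.

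In AT2s, experimental and control mice were compared over these genes without a call. E-AT2s against C-AT2s gave 0 called genes of the 92, as of all genes (0.0%), by limma, with 1 of the 92 and 1609 of all genes at an unadjusted p under 0.05. The median difference was 0.03, with 52 genes higher and 40 lower. The 1 gene was Cox7b2, which read 6.46 in C-AT2s and 2.31 to 3.70 on the other arrays, always below background. The control group is 1 array, and the lack of a call does not show that the levels are equal.

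Between the experimental populations the differences were small and mostly of 1 sign. E-IAAPs against E-AT2s, fitted on 6 arrays with the day as a block, gave 0 called genes of the 92 in either direction by limma, where 1.31% of all genes were higher and 0.00411% (1 gene) lower, and 3 of the 92 had an unadjusted p under 0.05, all lower (Cox6a2, Ndufaf3 and Ndufa4l2). The fitted difference was negative for 71 of the 92, with a median of -0.21 against -0.05 over all genes. E-IAAPs were lower on 3 of 3 days for 38 of the 92 genes, against 21.2% of all genes, and all 3 E-IAAP signals lay below all 3 E-AT2 signals for 28 of them, against 10.7% of all genes. The 28 include 17 of the 35 complex I subunits, none of complex II, 2 of complex III, 1 of complex IV and 5 of complex V. Of genes with a mean level of at least 10, 28.1% were lower on 3 of 3 days and 15.3% did not overlap. Higher on 3 of 3 days were 3 of the 92, against 15.5% of all genes.

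The complex I subunits made up most of this group. Ndufb9, an accessory subunit, read 9.08, 9.37 and 9.43 in E-AT2s and 8.63, 8.86 and 8.64 in E-IAAPs on days 4, 7 and 14, and Ndufv1 9.23, 9.43 and 9.59 against 8.61, 9.05 and 9.00. Ndufs6 read 11.79, 11.91 and 11.86 against 11.36, 11.48 and 11.19. The groups did not overlap for these 3 genes, and their fitted differences of -0.58, -0.53 and -0.51 had adjusted p of 0.47, 0.49 and 0.50. The fit has 2 residual degrees of freedom.

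By day, the median population difference of the 92 genes was -0.02 on day 4, -0.29 on day 7 and -0.25 on day 14 in experimental mice, and -0.74 on day 7 in control mice. For complex I subunits it was -0.14, -0.38 and -0.40, and -0.75 in control mice. For complex II subunits it was 0.10, 0.05 and -0.29, and -1.27 in control mice. A 2-fold lower signal in E-IAAPs was reached by 0, 4 and 4 of the 92, against 9.34%, 12.5% and 11.8% of all genes. The direction on day 7 depends on the scale: after centring each array on housekeeping genes the medians were -0.14, 0.05 and -0.15. On that scale 28 genes were lower on 3 of 3 days, which has no matching share over all genes here. The median fitted difference over all genes moved from -0.05 to 0.05 with this centring. Leukocyte and alveolar macrophage markers differed between these same arrays (13 of 14 macrophage markers lay higher in all E-IAAP than in all E-AT2 signals), and their part in the small differences was not tested.

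**Figure D4:**
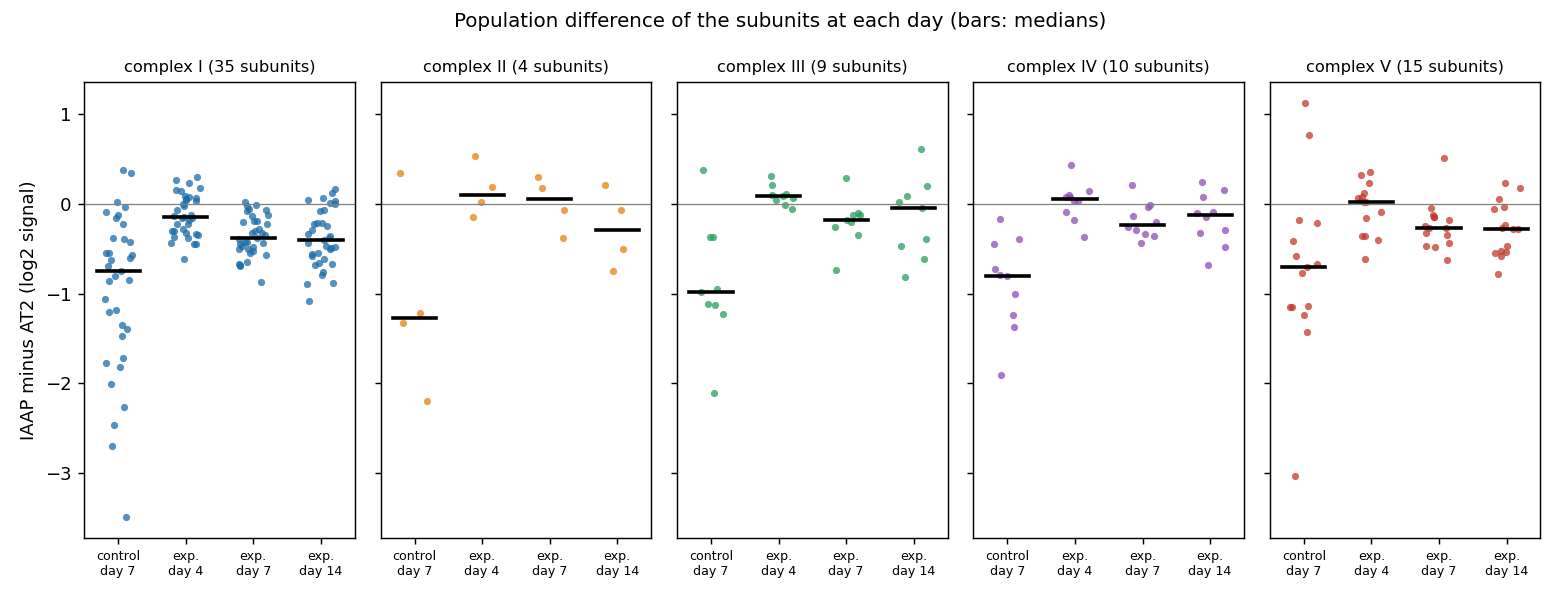
IAAP minus AT2 log2 signal (vertical axis) of the 73 subunits by complex in control mice on day 7 and experimental mice on days 4, 7 and 14 (horizontal axis), with 1 point per gene and a bar at the median. For complex I the medians are -0.75, -0.14, -0.38 and -0.40 in this order.

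On the deposited scale, 77 of the 92 genes read higher on day 14 than on day 4 in E-AT2s (median 0.23) and 52 did in E-IAAPs (median 0.02). In E-AT2s the median step was 0.22 from day 4 to 7 (72 genes higher) and 0.02 from day 7 to 14 (49 genes higher). Over all genes the medians between days 4 and 14 were 0.01 in both populations. These steps depend on the scale: after centring each array on housekeeping genes (chosen after seeing the data) the median of the 92 in E-AT2s was -0.31 from day 4 to 7, 0.33 from day 7 to 14 and 0.02 from day 4 to 14, where that of all genes was -0.50, 0.29 and -0.20. In limma, day 14 against day 4 over both populations gave 0 called genes of the 92, as of all genes (0.0%), with 1 of the 92 (Ndufaf3) and 1178 of all genes at an unadjusted p under 0.05, and a median of 0.14 against 0.02 over all genes. The median SD over days was 0.18 in E-AT2s and 0.16 in E-IAAPs for these genes, against 0.39 and 0.40 over all genes and 0.21 and 0.20 over genes with a mean level of at least 10. Both arrays of day 14 read Xist at 13.30 or more and Eif2s3y, a gene of the Y chromosome, at 2.69 or less, where the other 6 arrays read Eif2s3y at 10.66 or more, so day 14 and the sex of the mice cannot be told apart.

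Other mitochondrial genes were read beside these, against 11.3% of all genes and 18.5% of those with the higher mean levels called lower. For C-IAAPs against the other 3 groups, 25 of 77 mitochondrial ribosomal protein genes were called lower and 2 higher (median -0.79), 12 of 37 assembly factors of complexes III to V were lower and 2 higher (median -0.71), 9 of 29 genes of import and inner membrane carriers were lower and 1 higher (median -0.73), and 2 of 17 genes of the tricarboxylic acid cycle were lower (median -0.64). Of 19 glycolysis genes 3 were higher and 1 lower (median 0.07), and of 83 cytosolic ribosomal protein genes 11 were lower and 2 higher (median -0.51). Of 8 genes of cytochrome c and other electron carriers 2 were lower (median -0.60), and of 12 genes of uncoupling and antioxidant defense 2 were lower (median -0.45). Ttc19, an assembly factor of complex III, read 2.31 in C-IAAPs and 9.35 to 10.43 elsewhere, and Cox19, which brings copper to complex IV, 3.95 against 8.14 to 9.30. Both C-IAAP signals lay below background, and most Cox19 signals elsewhere lay under the C-IAAP background level, so no size is given. Among 17 regulators of mitochondrial biogenesis 2 were lower and 2 higher. Ppargc1a, the coactivator PGC-1 alpha, was called lower (adjusted p = 0.0012), but it read 1.64 in C-IAAPs and 6.20 to 7.56 elsewhere, above background on 4 arrays and under the C-IAAP background throughout, so no size is given. Gabpa, an ETS factor, read 6.56 in C-IAAPs, below background, against 8.67 to 9.23 (adjusted p = 0.0051). Nrf1 read 11.20 against 9.64 to 10.08 (1.41, adjusted p = 0.021) and Yy1 11.14 against 8.41 to 9.54 (1.99, adjusted p = 0.011). Housekeeping genes, 23 in all, had 4 lower and 2 higher, with a median of 0.02.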

How the data were processed

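Transcripts of 8 samples were read on Agilent 1-colour arrays for mouse, 1 array a sample, with no replicate of a group at a day. The deposited values are log2 spot signals that the authors background-corrected with NormExp on negative control spots and quantile-normalized in limma (version not given in the sources used here), before averaging of spots. Of 62976 spots, 43941 carried 1 gene symbol, and for each of 24357 symbols the brightest probe over the 8 arrays was used. Arrays give no counts, and their number limits the precision.

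E-IAAPs against E-AT2s, and day 14 against day 4, were fitted in limma on the 6 experimental arrays with population and day as terms. The other comparisons came from a fit of all 8 arrays in 4 groups, where days stand in for replicates, so p-values measure the spread between days. P-values were adjusted over all genes (Benjamini-Hochberg), with a threshold of 0.05. The script was tested on simulated data. A signal under the 95 percentile of 1394 sensory receptor genes was called below background, and folds against it are lower bounds from the background level. Start-site windows came from RefSeq (GRCm38.p6). Named genes are, by complex, the 2 of highest mean and the largest difference of each sign, all of complex II and Cyc1, the isoforms and the genes past the threshold (the 5 largest where more passed); others were chosen after their values were seen. The members, lists and comparisons were chosen with earlier results of these data known. Python 3.11.15, pandas 2.3.3, numpy 2.4.6, matplotlib 3.10.9, R 4.3.3 and limma 3.58.1 were used.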

Additional observations from a re-analysis of the deposited data

Results flagged for a closer look

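For 5 genes limma's interaction term found that the difference between IAAPs and AT2s was not the same in experimental and control mice: Ndufaf2 (5.314 on the log2 scale), Ndufc1 (2.996), Atp5k (2.599), Ndufb7 (2.48) and Ndufa10 (2.455). All 5 had IAAPs relatively higher in experimental mice, and 2.82% of all genes passed in this direction. The share of the respiratory chain genes that passed was near that of the genes with the higher mean levels. The 5 calls are therefore not particular to the respiratory chain. In each of the 5 genes the control difference rests on 1 array of C-IAAPs. None (0) of the 5 passed without any 1 of the experimental days or with the day as a further term, and neither did any of all genes (0). The C-IAAP signals of Ndufaf2, Ndufc1, Atp5k and Ndufa10 lay below background. Groups of 3 arrays or fewer were not tested for a single distant sample.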

How the results depend on the processing

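Counts below are of the 92 genes called higher, then lower. In the 2 settings that keep genes by mean level, only those of the 92 that met the level were tested. C-IAAPs against C-AT2s gave 1 and 14 as reported, 0 higher with the mean of all probes, 2 and 28 among the genes with the higher mean levels, 3 and 30 with a trended, robust prior, 3 and 32 among genes with a mean level of at least 10 (chosen after seeing the data), 0 and 5 with day as a further term, 0 higher among the subunits, and 0 higher with 4 to 6 lower without 1 of the days. E-IAAPs against C-IAAPs gave 18 and 2, 1 lower with either centring or the mean of all probes, 32, 35 and 30 higher in the same 3 settings in turn, 7 and 0 with the day term, 0 lower among the subunits, and 7 to 9 higher with 0 to 1 lower without 1 of the days. C-IAAPs against the other 3 groups gave 2 and 27, 1 and 16 when centred on housekeeping genes, 1 higher when centred on all genes or with the mean of all probes, 43 lower with the trended prior, 1 and 13 with the day term, 0 higher among the subunits, and 1 higher with 13 to 14 lower without 1 of the days. The interaction gave 5 and 0, 3 higher when centred on housekeeping genes or with the mean of all probes, 10 and 1 among the genes with the higher mean levels, 14 and 1 with the trended prior and at a mean level of at least 10, and 0 higher with the day term or without any 1 of the days. Of the subunits 4 read highest in C-IAAPs. The day 7 median of E-IAAPs against E-AT2s changed sign to 0.0509 when centred on housekeeping genes. The shares of all genes moved too: for C-IAAPs against C-AT2s from 6.09% higher and 7.74% lower to 11.4% and 18.8% among the genes with the higher mean levels, 13.4% and 18.6% at a mean level of at least 10, and 2.78% and 3.94% with the day term. The interaction had 10.6% of genes higher and 2.97% lower at the higher mean levels, and 5.29% and 2.46% with the trended prior. At a mean level of at least 10 it had 9.16% and 3.49%, and 0 with the day term or without a day. In these 3 settings in turn, 21.1%, 11.9% and 19.7% of genes were called higher in E-IAAPs than in C-IAAPs. Lower were 11.6%, 9.69% and 13%, and the day term gave 3.81% and 1.92%. C-IAAPs beside the other 3 groups had 13.4% higher and 13.7% lower with the trended prior, and 5.25% and 7.44% with the day term. The cause of these changes was not tested.

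Of 29 genes called against the other 3 groups, 12 kept their call in every setting that tested them (Atp5k, Atp5s, Cox6b2, Cox7b, Ndufa10, Ndufa6, Ndufaf2, Ndufb7, Ndufc1, Ndufs4, Sdhc and Uqcr10), with Atp5s, Atp5k and Ndufs4 not tested at a mean level of at least 10 and Atp5s not among the genes of higher level or by current symbol. Of the 5 of the interaction 0 did. Cox4i2 lost its call under both centrings, with the day term and without any 1 of the days. E-IAAPs and E-AT2s were compared with the day as a block, and without it 0 of the 92 were called too. That block pairs the experimental arrays by day. No analysis paired by animal was possible, because the labels give no replicate number that links samples. With 1 array per control group, differences rest on the spread between experimental days, and the high background of the C-IAAP array leaves lower bounds for the genes below it.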
